A study of Mus musculus with 18 samples.

Results

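The 10 genes described here encode 9 surface receptors or receptor partners that restrain T cells (Pdcd1, Ctla4, Lag3, Havcr2, Tigit, Btla, Cd160, Cd244 and Cd200) and the nuclear factor Tox. They were chosen by name, as the rows of the deposited count table with these symbols, and make up 10 of 24537 genes listed. These genes and the gene lists used below were chosen with earlier results of these data known. Their counts of calls, set beside shares of all genes, are therefore descriptive. The libraries came from mouse naive CD8+ T cells that had received a CRISPR ribonucleoprotein with a guide kit against Nur77, the nuclear receptor encoded by Nr4a1 (called KO after their label), or a scrambled guide (called WT). All cells, KO and WT, were then activated through CD3 and CD28, and each kind was kept overnight without lithocholic acid (control) or with lithocholic acid, a secondary bile acid, at 10 µM (LCA10) or 50 µM (LCA50). There were 3 libraries in each of the 6 groups KO control, KO LCA10, KO LCA50, WT control, WT LCA10 and WT LCA50, and the design asks how lithocholic acid acts on cells with either guide. The labels give no mouse strain or age and do not say whether the libraries of a group came from separate animals or cultures, so p-values here speak of the spread among libraries and that spread may be technical. A guide kit edits a population of cells, and the labels do not give the share of cells edited.

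Inhibitory receptors are switched on when a T cell is activated, and they bind ligands on other cells to damp signals from the antigen receptor and from CD28. PD-1 (Pdcd1) and BTLA carry tyrosine motifs that recruit the phosphatases SHP-1 and SHP-2, while CTLA-4 competes with CD28 for CD80 and CD86. When antigen persists, CD8+ T cells keep several of these receptors and the DNA-binding factor Tox at high levels, a state known as exhaustion, and the same receptors also appear early after activation.

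Libraries held 4113713 to 5945518 counts, and values below are CPM, counts per 1000000 counts of the library, with library sizes scaled by the trimmed mean of M values. Nr4a1 itself did not separate the labels. KO libraries held 61, 41 and 71 Nr4a1 counts in control, 48, 47 and 48 in LCA10 and 66, 38 and 36 in LCA50, against 55, 58 and 29 in WT control, 43, 82 and 43 in WT LCA10 and 84, 74 and 35 in WT LCA50. Averaged over doses, Nr4a1 differed by -0.16 ± 0.19 on the log2 scale in KO over WT (adjusted p = 0.789, edgeR quasi-likelihood test), and counts over a whole gene cannot show a small edit, so KO and WT are used as names of the guides. The CD8 T cell markers Cd3d, Cd3e, Cd8a and Cd8b1 had counts in every library, and markers of other lymphocytes were mixed. Of 6 CD4 and regulatory T cell markers, Cd4 and Cd40lg had at most 6 and 9 counts, while Foxp3, Ikzf2, Zbtb7b and Il2ra had counts in every library, Foxp3 41 to 88. Of 6 natural killer cell markers listed, Ncr1, Klrb1c, Klra4 and Klra8 were at 0 in 6 to 13 of 18 libraries, while Klre1 (2 to 25 counts) and Eomes, which activated CD8 T cells also make, were never at 0. KO LCA50 replicate 1 stood apart from the other libraries. It had the smallest total, the lowest summed CPM of the CD8 T list (3914, where all libraries ran to 5163), the highest of the CD4 and regulatory T list (1188, of which 1132 was the activation-induced gene Il2ra), and 176 CPM of olfactory, vomeronasal and trace amine receptor genes, which are not typical of T cells. WT LCA50 replicate 3 had the highest level of those receptor genes, 236 CPM, and all libraries lay between 69.1 and 236 CPM. The 3 WT LCA50 libraries had 146, 155 and 236 CPM, and the other WT libraries 81.7 to 140 CPM. In WT, then, this background and the 50 µM dose cannot be fully told apart.

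RefSeq promoter windows (assembly GRCm38.p6) matched 8 of the 10 members, with 9 windows in all. The 250 bases before the RefSeq start are shown for the 4 receptors whose levels differed between groups below, read 5′ to 3′ in the direction of the gene, with motif matches in capitals. Havcr2 lies at chr11:46454681-46454930 (plus strand), Btla at chr16:45224087-45224336 (plus strand), Ctla4 at chr1:60908775-60909024 (plus strand) and Pdcd1 at chr1:94052554-94052803 (minus strand).
Havcr2: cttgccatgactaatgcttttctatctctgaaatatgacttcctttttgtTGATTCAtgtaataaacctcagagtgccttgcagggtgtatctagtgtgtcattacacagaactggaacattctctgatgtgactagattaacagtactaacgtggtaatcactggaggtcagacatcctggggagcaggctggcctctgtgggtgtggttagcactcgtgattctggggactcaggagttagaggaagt
Btla: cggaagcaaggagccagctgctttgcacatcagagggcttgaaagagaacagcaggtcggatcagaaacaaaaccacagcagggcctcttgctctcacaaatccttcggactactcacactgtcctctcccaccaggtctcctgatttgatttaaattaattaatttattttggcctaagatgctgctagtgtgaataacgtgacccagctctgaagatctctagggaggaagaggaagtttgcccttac
Ctla4: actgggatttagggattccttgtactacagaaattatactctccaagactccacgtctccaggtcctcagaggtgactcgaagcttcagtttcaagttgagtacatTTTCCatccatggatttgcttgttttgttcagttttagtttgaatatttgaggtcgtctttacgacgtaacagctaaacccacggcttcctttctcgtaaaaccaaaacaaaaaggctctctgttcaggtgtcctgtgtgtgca
Pdcd1: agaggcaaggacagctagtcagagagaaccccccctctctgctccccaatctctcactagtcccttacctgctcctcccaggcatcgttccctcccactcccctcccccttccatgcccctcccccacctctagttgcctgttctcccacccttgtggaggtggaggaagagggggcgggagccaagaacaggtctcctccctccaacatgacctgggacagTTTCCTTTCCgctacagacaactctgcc
The motifs searched on both strands were the NR4A monomer site AAAGGTCA, the AP-1 site TGANTCA, the NFAT core GGAAA and the ATF4 element TGATGNAA. In all 32851 mouse promoter windows of this length, 1.34% held the NR4A site, 6.75% the AP-1 site, 55.6% the NFAT core and 3.45% the ATF4 element. The Havcr2 window held 1 AP-1 match, which began 200 bases before the start, and the Btla window held no match. The Ctla4 window held 1 NFAT core, 144 bases before the start, and the Pdcd1 window held 2, at 28 and 23 bases. These letters of the NR4A site and of the ATF4 element occurred in none of the 9 windows, of which 5 held an NFAT core and 2 an AP-1 site.

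All 10 members had enough counts to be tested, as 11651 genes did. On a per-length scale (CPM per kb of annotated exon), Ctla4 stood highest in every group, between 63.8 ± 7.60 in WT LCA50 and 101 ± 3.24 in KO control (SD, n = 3 in each group). Pdcd1, Cd160 and Tigit followed, with group means between 12.8 and 32.4 CPM per kb, and their libraries overlapped, except that Tigit lay below the other two in WT LCA10 and Pdcd1 above them in WT LCA50. Havcr2, Lag3 and Btla had group means between 4.39 and 11.2 CPM per kb. Cd200 and Cd244 lay lower, with group means between 1.97 and 3.12 for Cd200 and between 1.15 and 2.17 for Cd244. Tox was lowest, with group means between 0.669 and 1.58 CPM per kb, and its libraries overlapped those of Cd244 in KO control, KO LCA50 and WT control. Dividing by the longest transcript instead of all exons keeps Ctla4 first, but the place of Tox below Cd244 depends on that choice. Tox has 7.61 kb of annotated exon and a longest transcript of 3.96 kb, and Cd244 has 4.88 and 3.76 kb. By longest transcript, the mean of Tox lies above that of Cd244 in KO LCA50 and WT LCA50. Exons of Cd160 overlap those of Pdzk1 on the other strand, which had 13 to 36 counts a library, and no source used here says whether counting kept the strands apart, so reads of this pair cannot be told apart. Exons of Tox overlap those of Gm11802 on the other strand in the same way, and no value of Gm11802 is used here.

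**Figure D1:**
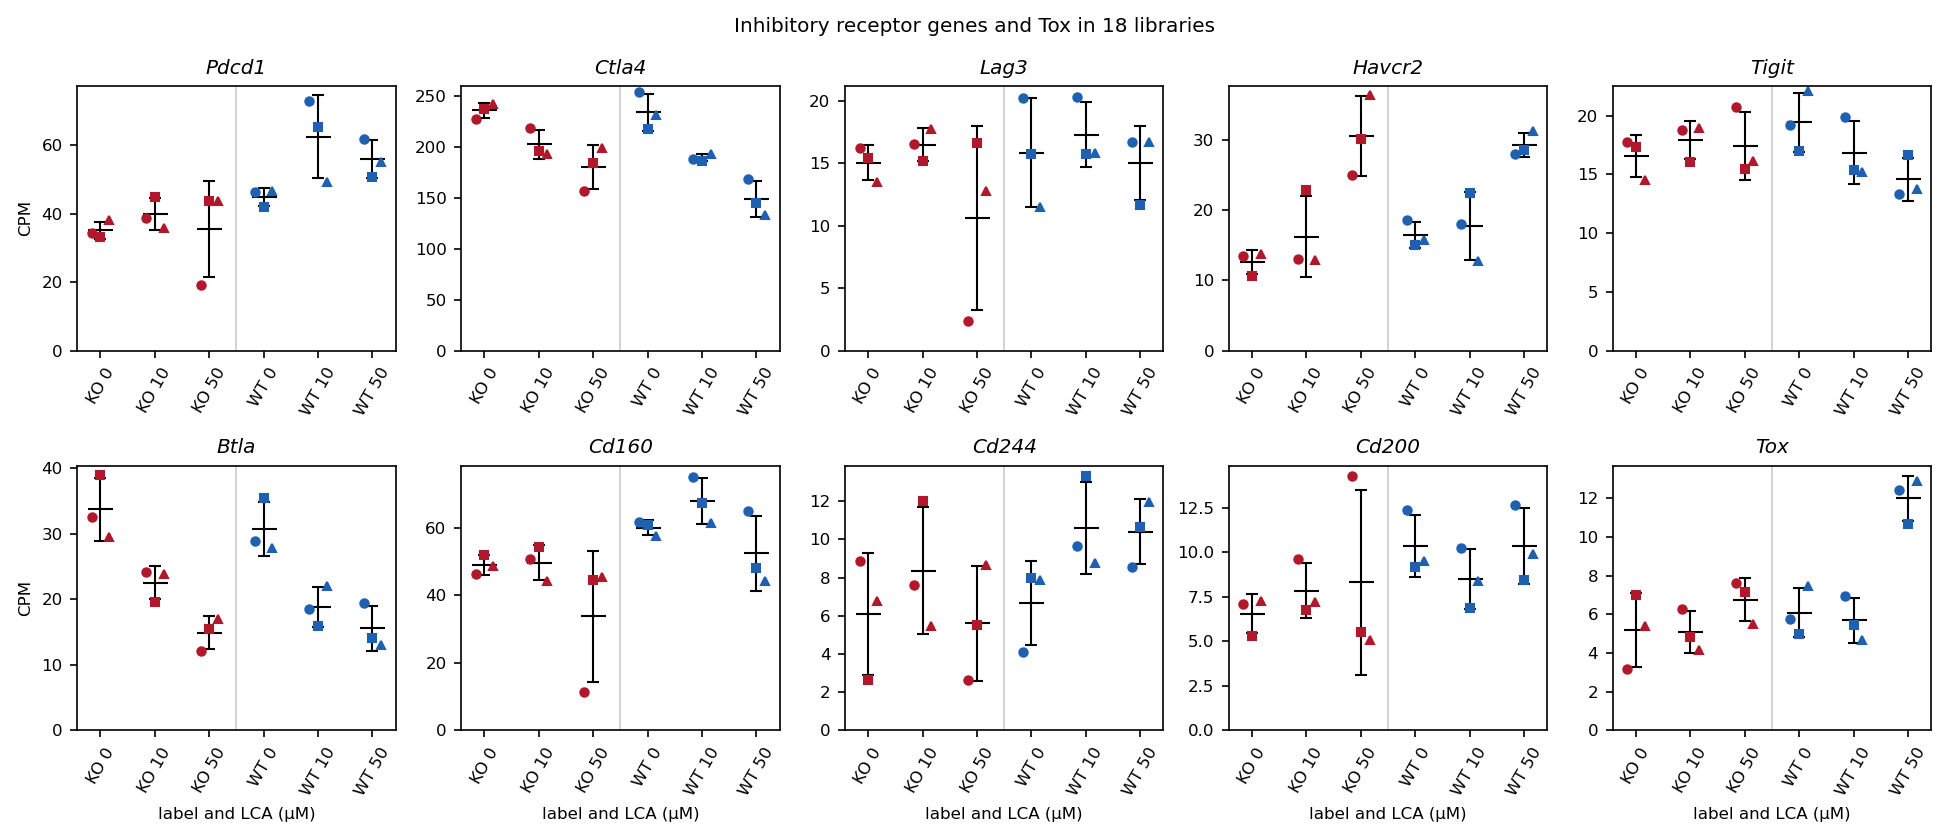
CPM (y axis) of the 10 genes in each library, by guide label and lithocholic acid dose in µM (x axis), KO in red and WT in blue. Points are libraries (circle, square and triangle for replicates 1, 2 and 3) and bars are the mean ± SD of 3 libraries; at 50 µM Btla and Ctla4 lie below control and Havcr2 above it under both labels, and KO LCA50 replicate 1 is low for Lag3, Cd160 and Pdcd1.

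In KO cells, 3 of 10 members differed between LCA50 and control at an adjusted p under 0.05, where 6.35% of all genes tested did. Havcr2 was higher, as 2.93% of genes were, and Btla and Ctla4 were lower, as 3.42% were. In WT cells 4 of 10 members differed, against 8.58% of all genes. Havcr2 and Tox were higher, as 3.66% of genes were, and Btla and Ctla4 were lower, as 4.93% were. Under both labels the LCA50 and control libraries did not overlap for Havcr2, which lay higher, nor for Btla and Ctla4, which lay lower. That was so upward for 4.34% of all genes tested and downward for 5.24%. Averaged over labels, LCA50 against control gave 4 calls (Havcr2 and Tox higher, Btla and Ctla4 lower), where 16.5% of genes were called, 7.86% higher and 8.66% lower. LCA10 against control gave 2 calls averaged over labels (Btla and Ctla4 lower), where 1.82% of genes were called, 1.01% higher and 0.807% lower. Between LCA50 and LCA10 there were 3 calls (Havcr2 and Tox higher, Ctla4 lower), where 5.72% of genes were called, 2.26% higher and 3.47% lower. At LCA10, no member was called within either label by edgeR, where 0.326% of genes were called in KO and 0.386% in WT. The unadjusted p was under 0.05 for 2 members in KO and 3 in WT, and DESeq2 called 0 in KO and 1 in WT. The difference between KO and WT in the response to LCA50 was called for 0 of 10 members and for 0% of genes, with 1 member under an unadjusted p of 0.05 and 0 called by DESeq2. For the LCA10 response it was called for 0 members and 0% of genes, with 0 members under an unadjusted p of 0.05 and 0 called by DESeq2.

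**Figure D2:**
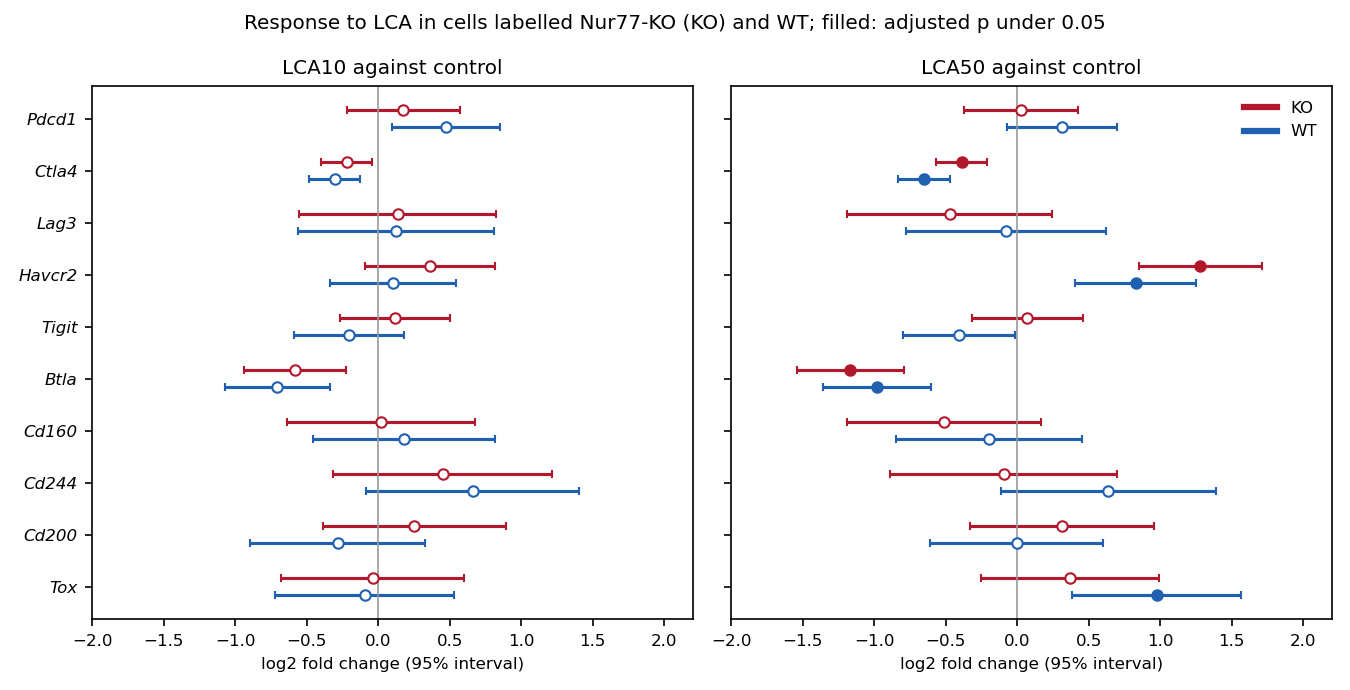
Log2 fold change (x axis) of each member at LCA10 (left) and LCA50 (right) against control, KO in red above WT in blue. Bars are 95% intervals from the edgeR fit and filled points have an adjusted p under 0.05; at 50 µM the filled points are Havcr2, Btla and Ctla4 under both labels, and Tox in WT.

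Btla, a receptor for the TNF receptor family protein HVEM, fell at LCA50 under both labels, and at LCA10 when the labels were averaged. In KO libraries Btla had 32.6, 39.0 and 29.6 CPM in control, 24.1, 19.6 and 23.8 CPM in LCA10, and 12.2, 15.4 and 17.1 CPM in LCA50. In WT libraries it had 28.9, 35.5 and 27.9 CPM in control, 18.6, 15.9 and 22.1 CPM in LCA10, and 19.5, 14.1 and 13.1 CPM in LCA50. Every LCA50 library lay below every control library of its label, as held under both labels for 5.24% of all genes tested. Every LCA10 library did so too, a separation not counted over all genes. LCA50 and LCA10 libraries overlapped in WT and did not in KO. At LCA50 Btla fell to 14.9 ± 2.51 CPM in KO cells, against 33.7 ± 4.83 in KO control (SD, n = 3 each), a log2 fold change of -1.17 ± 0.18 (adjusted p = 8.56e-05). In WT cells it averaged 15.6 ± 3.47 CPM at LCA50 and 30.8 ± 4.15 CPM in control, a change of -0.98 ± 0.19 (adjusted p = 0.000547). Averaged over labels, Btla was already called at LCA10, at -0.64 ± 0.13 (adjusted p = 0.00262), and the further step to LCA50 was -0.43 ± 0.14 (adjusted p = 0.0519). That step was called by DESeq2 (-0.43 ± 0.14, adjusted p = 0.0434), with no filter on low counts (adjusted p = 0.036), and without KO LCA10 replicate 2, KO LCA50 replicate 3, WT LCA10 replicate 2 or WT LCA50 replicate 1 (adjusted p = 0.0168 to 0.045). In bulk libraries, fewer cells that make a transcript and less transcript per cell cannot be told apart. The summed CPM of 6 markers of naive T cells (Ccr7, Lef1, Tcf7, Il7r, Klf2 and S1pr1, none at 0 in any library) was also lower at LCA50. It was 1037 to 1109 in KO LCA50, against 1225 to 1236 in KO control, and 990.2 to 1058 in WT LCA50, against 1312 to 1373 in WT control. Single markers did not all follow the sum. Lef1 averaged 167 ± 3.71 CPM in KO control and 175 ± 46.5 in KO LCA50, and 156 ± 5.78 in WT control and 121 ± 8.61 in WT LCA50. Tcf7 averaged 336 ± 14.2 and 244 ± 43.0 CPM in the same KO groups, and 416 ± 17.4 and 304 ± 33.7 in the same WT groups (SD, n = 3 each). The part of the marker sum in the Btla and Ctla4 results was not tested.

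Ctla4, whose product takes CD80 and CD86 away from CD28, also fell. Its KO libraries held 227, 238 and 242 CPM in control, 218, 196 and 193 CPM in LCA10, and 156, 184 and 199 CPM in LCA50. Its WT libraries held 254, 217 and 231 CPM in control, 189, 186 and 193 CPM in LCA10, and 168, 145 and 133 CPM in LCA50. All LCA libraries of a label lay below its controls, and in WT the LCA50 libraries also lay below those of LCA10. Of these separations, only LCA50 against control under both labels was counted over all genes (5.24%). The change at LCA50 was -0.39 ± 0.09 in KO (adjusted p = 0.0044) and -0.65 ± 0.09 in WT (adjusted p = 6.45e-06). The difference between these responses, 0.26 ± 0.12 with a 95% interval of 0.01 to 0.52, did not pass over all genes (adjusted p = 0.795). Averaged over labels, Ctla4 changed by -0.26 ± 0.06 at LCA10 (adjusted p = 0.0163) and by a further -0.26 ± 0.06 between LCA10 and LCA50 (adjusted p = 0.00881). The LCA10 call was lost, at adjusted p = 0.0582 to 0.0638, without KO control replicate 3, KO LCA10 replicate 2, WT control replicate 1 or WT LCA10 replicate 2. The step between doses was lost without KO LCA50 replicate 1 and WT LCA50 replicate 3 together (-0.18 ± 0.06, adjusted p = 0.116) and with a covariate for the receptor-gene background (-0.19 ± 0.07, adjusted p = 0.149). CD28, the activating receptor for the same ligands, changed the same way. Cd28 averaged 161 ± 28.6 CPM in KO LCA50 and 209 ± 14.95 CPM in KO control, and 160 ± 4.28 CPM in WT LCA50 and 200 ± 10.5 CPM in WT control (SD, n = 3 each).

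Havcr2 encodes TIM-3, a receptor for galectin-9 and other ligands that is typical of effector and exhausted cells, and its change had the opposite sign. KO libraries had 13.4, 10.6 and 13.7 CPM in control, 12.96, 22.8 and 12.9 CPM in LCA10, and 25.03, 30.1 and 36.3 CPM in LCA50. WT libraries had 18.6, 14.98 and 15.8 CPM in control, 17.98, 22.4 and 12.7 CPM in LCA10, and 27.9, 28.5 and 31.2 CPM in LCA50. The LCA50 libraries lay above all others of their label, while LCA10 overlapped control, with replicate 2 the highest LCA10 library under both labels. LCA50 lay above control under both labels for 4.34% of all genes tested, and the separation from LCA10 was not counted over all genes. At LCA50 Havcr2 averaged 30.5 ± 5.66 CPM in KO cells, against 12.6 ± 1.74 in KO control, a log2 fold change of 1.28 ± 0.21 (adjusted p = 0.000173). In WT cells it averaged 29.2 ± 1.73 CPM, against 16.4 ± 1.89 in WT control, a change of 0.83 ± 0.21 (adjusted p = 0.00958). The WT call was lost with a covariate for the receptor-gene background (0.84 ± 0.25, adjusted p = 0.0522), without WT control replicate 2 (0.76 ± 0.24, adjusted p = 0.0534) and without WT LCA50 replicate 3 (0.77 ± 0.24, adjusted p = 0.0529). Averaged over labels, Havcr2 differed by 0.82 ± 0.15 between LCA50 and LCA10 (adjusted p = 0.000396) and by 0.23 ± 0.16 between LCA10 and control (adjusted p = 0.627).

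Set against each other per kb of exon, Havcr2 and Btla changed places. The ratio of Havcr2 to Btla in KO libraries was 0.514, 0.338 and 0.578 in control, 0.670, 1.45 and 0.674 in LCA10, and 2.57, 2.43 and 2.65 in LCA50. In WT libraries it was 0.802, 0.526 and 0.705 in control, 1.21, 1.75 and 0.718 in LCA10, and 1.78, 2.53 and 2.97 in LCA50. Btla was the more abundant of the pair in all 6 control libraries and Havcr2 in all 6 LCA50 libraries, with LCA10 libraries on both sides. This ratio was chosen after both genes' values were seen and is given without a test.

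**Figure D3:**
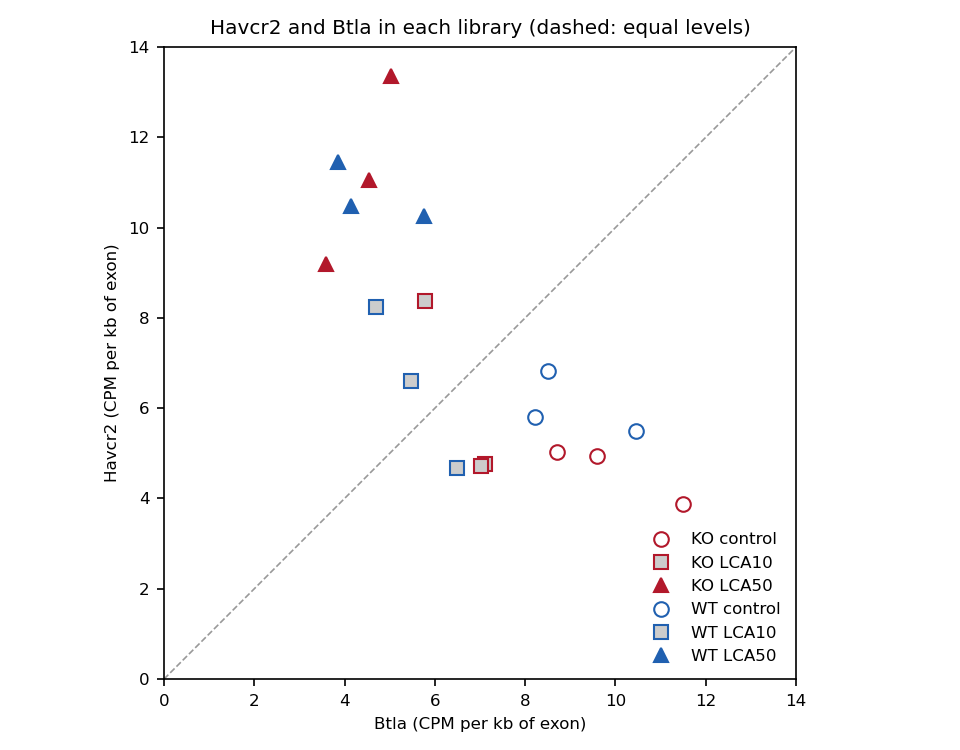
Havcr2 (y axis) against Btla (x axis), both in CPM per kb of exon, 1 point a library, KO red and WT blue, with open circles for control, grey squares for LCA10 and filled triangles for LCA50. The dashed line marks equal levels; the 6 control libraries lie below it and the 6 LCA50 libraries above it.

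Tox, the DNA-binding factor needed for the exhausted state, had few counts, 16 to 58 a library. KO libraries had 3.16, 6.98 and 5.41 CPM in control, 6.26, 4.85 and 4.16 CPM in LCA10, and 7.63, 7.13 and 5.50 CPM in LCA50. WT libraries had 5.78, 4.99 and 7.48 CPM in control, 6.96, 5.45 and 4.69 CPM in LCA10, and 12.4, 10.6 and 12.9 CPM in LCA50. The WT LCA50 libraries lay above the other 15, a separation not counted over all genes, and the other groups overlapped within each label. In WT cells Tox averaged 11.99 ± 1.18 CPM at LCA50 and 6.09 ± 1.27 CPM in control, a change of 0.97 ± 0.29 (adjusted p = 0.0303). In KO cells the change was 0.37 ± 0.31 (adjusted p = 0.561), and the difference between the labels' responses, -0.60 ± 0.42, did not pass (adjusted p = 0.836). The WT call was lost with the background covariate (0.99 ± 0.36, adjusted p = 0.128) and without both high-background LCA50 libraries (0.92 ± 0.32, adjusted p = 0.0758), and it was lost without WT control replicate 1 or 2 or any 1 of the WT LCA50 libraries, with adjusted p between 0.056 and 0.126. Averaged over labels, Tox differed by 0.67 ± 0.21 between LCA50 and control (adjusted p = 0.0251) and by 0.74 ± 0.21 between LCA50 and LCA10 (adjusted p = 0.0328). Without KO LCA50 replicate 1 and WT LCA50 replicate 3 together, both calls were lost, at 0.60 ± 0.24 (adjusted p = 0.101) and 0.67 ± 0.24 (adjusted p = 0.144). With the background covariate the second was lost as well (0.74 ± 0.25, adjusted p = 0.109). Leaving out 1 library also ended the first call for 5 libraries (KO control 1, KO LCA50 1, WT control 1 and 2, and WT LCA50 3) and the second for 8 (replicates 2 and 3 of both LCA10 groups, KO LCA50 1 and 2, and WT LCA50 1 and 3). Of the related genes Tox2, Tox3 and Tox4, only Tox4 had enough counts to be tested, and it averaged 176 ± 1.19 CPM in WT LCA50 and 186 ± 13.6 CPM in WT control.

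Pdcd1, which encodes PD-1, differed between the guides when the doses were averaged. Its KO libraries had 34.4, 33.2 and 38.0 CPM in control, 38.7, 45.0 and 35.9 CPM in LCA10, and 19.3, 43.6 and 43.6 CPM in LCA50. Its WT libraries had 46.5, 41.9 and 46.5 CPM in control, 72.9, 65.4 and 49.4 CPM in LCA10, and 61.8, 50.8 and 55.1 CPM in LCA50. At each dose every KO library lay below every WT library, which held for 0.498% of all genes tested in this direction. Averaged over doses, KO was lower by a log2 fold change of -0.55 ± 0.11 (adjusted p = 0.00167), the single member of 10 called in this comparison, where 5.15% of genes were called. At single doses the differences were -0.35 ± 0.19 in control (adjusted p = 0.661), -0.65 ± 0.19 at LCA10 (adjusted p = 0.128) and -0.64 ± 0.19 at LCA50 (adjusted p = 0.0806). Without KO LCA50 replicate 1 the LCA50 difference was -0.35 ± 0.15 (adjusted p = 0.214) and the averaged one -0.45 ± 0.08 (adjusted p = 9.82e-05). The summed CPM of 10 myeloid and dendritic markers, all listed, was also apart, at 19.95 to 33.98 in KO libraries against 46.3 to 81.1 in WT libraries. Lyz2, Itgam, Cd14, Fcer1g and Cd68 had counts in every library, S100a8, S100a9, Ngp and Itgax were at 0 in 6 to 8 libraries and Csf1r in 1. Their part in the Pdcd1 difference was not tested. Along the doses Pdcd1 was not called, with 0.31 ± 0.19 at LCA50 in WT (adjusted p = 0.338) and 0.03 ± 0.19 in KO (adjusted p = 0.968). At LCA10 the change was 0.48 ± 0.18 in WT (adjusted p = 0.462) and 0.18 ± 0.19 in KO (adjusted p = 0.89). In WT every LCA10 and LCA50 library lay above every control library, while in KO both doses overlapped control. How many of all genes were apart in this way in WT alone was not counted. Averaged over labels the LCA50 change was 0.17 ± 0.13 (adjusted p = 0.44), and without KO LCA50 replicate 1 it was called, at 0.31 ± 0.10 (adjusted p = 0.0346).

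**Figure D4:**
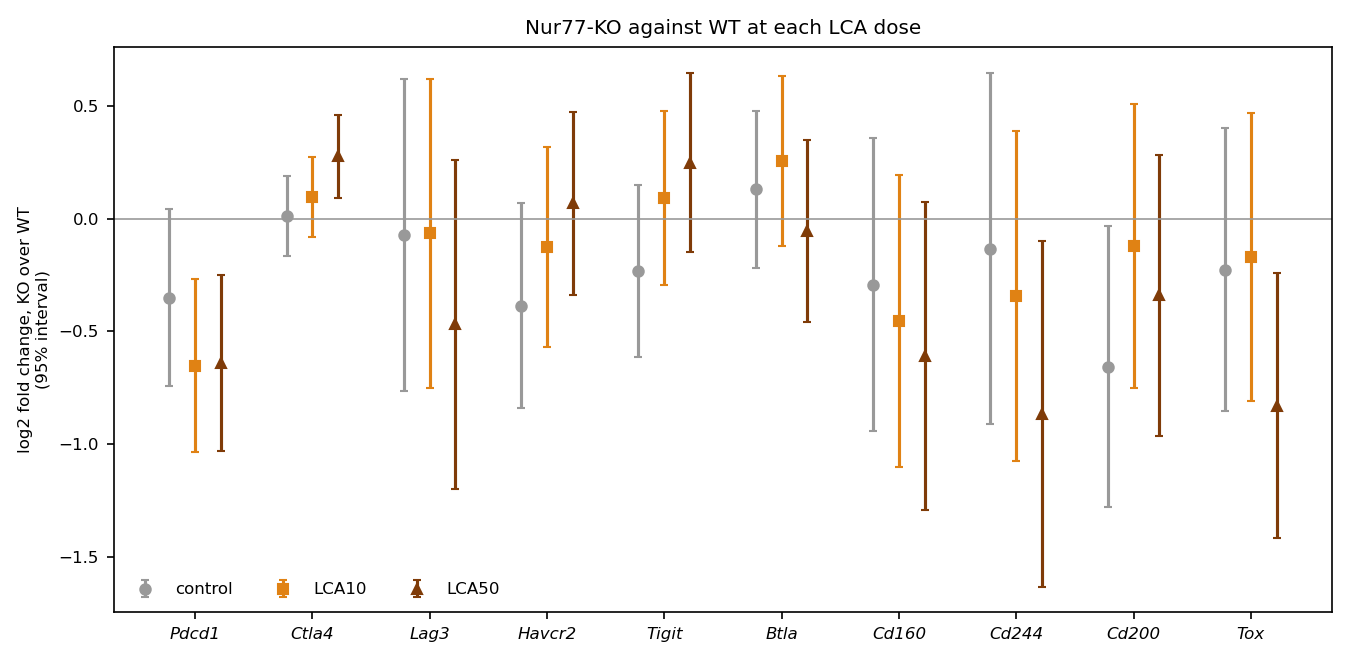
Log2 fold change of KO over WT (y axis) for each member (x axis) in control (grey circles), LCA10 (orange squares) and LCA50 (brown triangles), with 95% intervals. Pdcd1 lies below 0 at all 3 doses (-0.35, -0.65 and -0.64), as do Lag3, Cd160, Cd244, Cd200 and Tox. Ctla4 lies above 0 at all 3 doses, and Btla, Tigit and Havcr2 lie on both sides of 0.

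At single doses, 0 of 10 members were called between KO and WT by edgeR, where 0.627% of genes were called in control, 0.661% at LCA10 and 1.94% at LCA50 (1.42% higher, 0.524% lower). The unadjusted p was under 0.05 for 1 member in control (Cd200), 1 at LCA10 (Pdcd1) and 4 at LCA50 (Pdcd1, Ctla4, Cd244 and Tox). Of 11651 genes tested, 1013, 978 and 1571 were under that p at these doses. DESeq2 called 0, 0 and 1 of the members. Averaged over doses, 6 members were under that p (Pdcd1, Cd160, Cd244, Cd200 and Tox lower in KO, Ctla4 higher), beside 1791 of the 11651 genes.

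Lag3, Cd160, Cd244, Tigit and Cd200 were not called in any contrast. The SD of Cd244 was 3.01 CPM in KO LCA50, beside 3.18 in KO control and 3.34 in KO LCA10. Lag3, Cd160 and Cd200 had a wide spread in KO LCA50, where replicate 1 stood apart. Lag3, a receptor for MHC class II and fibrinogen-like protein, had 10 counts in that library and 84 and 65 in the other two of its group. In CPM it had 2.38 there, a ratio of 0.162 to the mean of the other 2 libraries. Cd160, which binds HVEM as Btla does, had 48 counts there and 225 and 231 in the other two, a CPM ratio of 0.254. Cd244, the CD48 receptor 2B4, had a ratio of 0.37 and Pdcd1 0.443, so 4 members stood at less than 0.5 of their group's other libraries. Among the other 17 libraries that occurred for 1 member in 1 library, Cd244 in KO control replicate 2. The share of all genes under this ratio in KO LCA50 replicate 1 was not counted. Across genes with enough counts, that library differed more from the other 2 of its group than they did from each other. The mean scaled squared difference in counts was 8.48 and 8.12, against 3.64. Cd200, whose product binds an inhibitory receptor on myeloid cells, had the opposite sign there, with 14.3 CPM and a ratio of 2.69, while Tigit, a receptor for nectins and CD155, had 1.31.

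**Figure D5:**
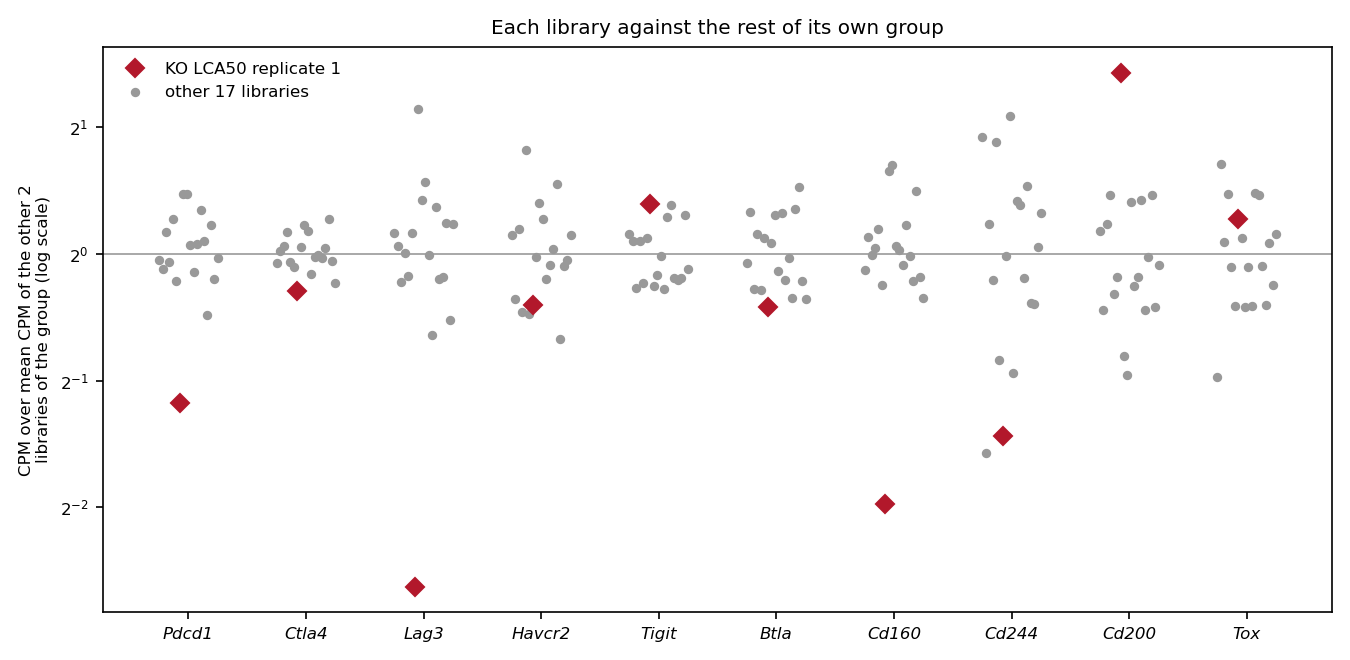
CPM of each library over the mean CPM of the other 2 libraries of its group (y axis, log scale) for each member (x axis). KO LCA50 replicate 1 (red diamonds) lies at 0.162 for Lag3 and 0.254 for Cd160, below all other libraries (grey), and at 2.69 for Cd200, above them.

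With all libraries, the change of Lag3 at LCA50 in KO was -0.47 ± 0.35 (adjusted p = 0.508) and that of Cd160 -0.51 ± 0.31 (adjusted p = 0.421). Without that library they were -0.03 ± 0.23 (adjusted p = 0.966) and -0.13 ± 0.14 (adjusted p = 0.753). Calls for Havcr2, Btla and Ctla4 in KO were kept without it, at 1.40 ± 0.22, -1.05 ± 0.20 and -0.30 ± 0.09, with adjusted p of 3.75e-05, 0.000716 and 0.0424. Between the guides, averaged over doses, Cd160 differed by -0.45 ± 0.18 with all libraries (adjusted p = 0.21) and by -0.32 ± 0.08 without it (adjusted p = 0.00415). Cd200 differed by -0.37 ± 0.18 (adjusted p = 0.3) with it and by -0.58 ± 0.16 (adjusted p = 0.0228) without it. Ctla4 was higher in KO by 0.13 ± 0.05 (adjusted p = 0.175) with it and by 0.16 ± 0.05 (adjusted p = 0.0353) without it. In the remaining libraries Cd160 had 44.3 to 54.2 CPM in KO and 44.3 to 75.2 CPM in WT over all doses. Within doses the labels overlapped only at LCA50, with 44.6 and 45.4 CPM in KO and 44.3 to 65.0 in WT. In control KO had 46.2 to 52.05 CPM and WT 57.6 to 61.7, and at LCA10 KO had 44.3 to 54.2 and WT 61.5 to 75.2. How many of all genes were apart in this way was not counted. Tigit kept a narrow range, 13.3 to 22.05 CPM in all 18 libraries, and its largest change was -0.41 ± 0.19 at LCA50 in WT (adjusted p = 0.2, 95% interval -0.80 to -0.02). Cd244 ran from 2.62 to 13.3 CPM on 11 to 66 counts, and at this depth its change of 0.64 ± 0.37 at LCA50 in WT was not told from its error (adjusted p = 0.318).

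Other inhibitory receptors, from a list of 15 of which 11 were tested, were lower at LCA50 wherever they were called. Averaged over labels, 5 of the 11 fell and the other 6 did not pass, where 8.66% of all genes tested fell; the list median was -0.40 and the median over all genes 0.01. Cd5, a brake on antigen receptor signals, fell by 0.62 ± 0.09 on the log2 scale (adjusted p = 2.52e-06). It averaged 40.2 ± 8.18 CPM in KO LCA50 and 61.0 ± 2.21 in KO control, and 53.2 ± 5.40 CPM in WT LCA50 and 83.7 ± 5.61 in WT control (SD, n = 3 each). The collagen receptor Lair1 changed by -1.03 ± 0.16 (adjusted p = 2.03e-05) and the adhesion receptor Pecam1 by -0.56 ± 0.09 (adjusted p = 2.46e-05). In WT alone 5 of the list fell, beside 4.93% of all genes. With the background covariate 2 did, Lair1 then at -0.71 ± 0.26 (adjusted p = 0.124). In KO alone 3 fell, beside 3.42% of all genes, and 1 without the pair of high-background LCA50 libraries. Between the guides, averaged over doses, 7 of the 11 were lower in KO and 1 higher, beside 1.79% and 3.36% of all genes. The log2 fold change of KO over WT was -0.46 ± 0.07 for Cd5 (adjusted p = 2.8e-05), -0.68 ± 0.13 for Cd72, known mainly from B cells (adjusted p = 0.000914), and -0.67 ± 0.16 for Cd101 (adjusted p = 0.0064). Lilrb4a, an inhibitory receptor of myeloid and activated lymphoid cells, was higher in KO by 0.51 ± 0.07 (adjusted p = 5.98e-06). The lower myeloid marker sum of KO libraries stands beside these values too, and its part was not tested.

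Transcripts of several ligands were present in these libraries. Of 15 listed ligands 11 were tested, and averaged over labels 2 rose and 2 fell at LCA50, beside 7.86% and 8.66% of all genes (list median 0.01). Lgals3, a galectin that binds LAG-3, rose by 0.51 ± 0.09 (adjusted p = 0.000164). Cd200r1, the receptor for CD200, rose by 1.62 ± 0.41 (adjusted p = 0.0067) at a low level, averaging 7.37 ± 4.77 CPM in KO LCA50 and 1.86 ± 1.83 in KO control, and 5.88 ± 2.75 CPM in WT LCA50 and 2.43 ± 1.30 in WT control. Lgals9, which encodes the TIM-3 ligand galectin-9, fell by 0.37 ± 0.07 (adjusted p = 0.000115) while Havcr2 rose. Cd48, the ligand of CD244, fell by 0.21 ± 0.05 (adjusted p = 0.00425). At LCA10 the single ligand called was Cd274, which encodes the PD-1 ligand PD-L1, at 0.38 ± 0.10 (adjusted p = 0.0456), beside 1.01% of all genes higher. Between the guides, Cd274 and Pdcd1lg2, both ligands of PD-1, were higher in KO by 0.31 ± 0.08 (adjusted p = 0.0202) and 0.55 ± 0.15 (adjusted p = 0.0274), while Pdcd1 was lower. Without the pair of high-background LCA50 libraries both ligands missed the threshold, with adjusted p of 0.0518 and 0.0536. Cd48 and Lgals3 were lower in KO, at -0.27 ± 0.04 (adjusted p = 4.13e-05) and -0.41 ± 0.07 (adjusted p = 0.000416).

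Of 10 receptors that share ligands or families with the members, all tested, 3 fell and 2 rose at LCA50 averaged over labels, beside 8.66% and 7.86% of all genes (list median -0.14). Slamf6, a relative of CD244 found on stem-like T cells, fell by 0.64 ± 0.11 (adjusted p = 6.62e-05), Cd28 by 0.35 ± 0.07 (adjusted p = 0.000275) and Ly9 by 0.30 ± 0.09 (adjusted p = 0.02). Slamf1 rose by 0.34 ± 0.12 (adjusted p = 0.0461) and the costimulatory receptor Icos by 0.19 ± 0.07 (adjusted p = 0.0477). With the background covariate Slamf1 and Icos missed the threshold (adjusted p = 0.156 and 0.131). Between the guides, Slamf7, Icos and Slamf6 were higher in KO, by 0.30 ± 0.07, 0.19 ± 0.05 and 0.32 ± 0.09, and Cd96 and Cd2 were each lower, at -0.21 ± 0.06, with adjusted p between 0.00788 and 0.0347. Without the pair of high-background LCA50 libraries, Icos missed the threshold between the guides (adjusted p = 0.0601), as Ly9 did at LCA50 (adjusted p = 0.0879).

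Downstream of the receptors, 13 of 15 adaptors and phosphatases were tested, and 2 rose and 2 fell at LCA50 averaged over labels, beside 7.86% and 8.66% of all genes (list median 0.04). Pag1, a membrane adaptor that holds the inhibitory kinase Csk, rose by 0.67 ± 0.14 (adjusted p = 0.000809), and Inpp5d, the lipid phosphatase SHIP-1, by 0.25 ± 0.06 (adjusted p = 0.00396). Sh2d1a, the adaptor SAP of CD244 and its relatives, fell by 0.65 ± 0.17 (adjusted p = 0.00606). Ptpn6, which encodes SHP-1, fell by 0.33 ± 0.08 (adjusted p = 0.0113). Csk was the single gene of this list called between the guides, at -0.22 ± 0.06 in KO over WT (adjusted p = 0.0147), beside 1.79% of all genes lower and 3.36% higher. Of 13 genes for surface turnover of the receptors, 12 were tested. Ap2m1, a subunit of the clathrin adaptor that takes up CTLA-4, was the only one called at LCA50 averaged over labels, at 0.20 ± 0.07 (adjusted p = 0.0495; list median -0.04), and 4 were under an unadjusted p of 0.05. Between the guides edgeR called 0 of the 12, with 2 under an unadjusted p of 0.05, and DESeq2 values for this list are not given here.

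Of 23 Tox relatives and transcription factors known to act on these genes in T cells, 20 were tested, and 3 rose and 4 fell at LCA50 averaged over labels, beside 7.86% and 8.66% of all genes (list median -0.10). Eomes, a T-box factor of effector and exhausted cells, rose by 0.59 ± 0.07 (adjusted p = 4.16e-07). It averaged 84.8 ± 7.004 CPM in control, 123 ± 6.08 in LCA10 and 122 ± 19.7 in LCA50 in KO cells, and 92.5 ± 5.34, 132 ± 12.6 and 145 ± 12.03 CPM at the same doses in WT cells. Eomes was called at LCA10 within both labels, at 0.54 ± 0.10 in KO (adjusted p = 0.00833) and 0.51 ± 0.10 in WT (adjusted p = 0.0106). Tbx21, the T-box factor T-bet, fell by 0.66 ± 0.11 at LCA50 (adjusted p = 0.000217), so the pair moved in opposite directions. Tcf7 and Myb, factors of naive and stem-like T cells, fell by 0.46 ± 0.07 and 0.43 ± 0.07 (adjusted p = 1.57e-05 and 5.94e-05). Id2 rose by 0.29 ± 0.06 (adjusted p = 0.000706) and Nfatc2 by 0.25 ± 0.07 (adjusted p = 0.0167). Between the guides 6 of the 20 were higher in KO and 3 lower, beside 3.36% and 1.79% of all genes. Id2 was higher by 0.50 ± 0.05 (adjusted p = 9.6e-09), Irf4 by 0.30 ± 0.06 (adjusted p = 0.000493) and Lef1 by 0.35 ± 0.06 (adjusted p = 0.000529). Nfatc1, an NFAT factor that acts on Pdcd1, was lower in KO, at -0.31 ± 0.05 (adjusted p = 2.72e-05), averaging 139 ± 3.06 CPM in KO control and 169 ± 1.69 in WT control (SD, n = 3 each). Id3 was lower, at -0.74 ± 0.11 (adjusted p = 0.000249), and Tcf7 at -0.28 ± 0.06 (adjusted p = 0.0012).

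Across the 18 libraries, the genes whose log2 CPM ran most like a member were taken for the members called at LCA50 averaged over labels. For Btla these were Gimap7 (Pearson r = 0.94) and Abcg1 (r = 0.94), for Ctla4 Rab1a (r = 0.97) and Cd8b1 (r = 0.96), for Havcr2 Ly6g5b (r = 0.94) and Vasp (r = 0.90), and for Tox Tysnd1 (r = 0.83) and Rrp12 (r = 0.82). These are descriptions over libraries that share groups and depth, picked as the highest of the tested genes after predicted genes (Gm and Rik symbols) were left out. Among the members themselves, Btla and Ctla4 had r = 0.87, and Lag3 and Cd160 had r = 0.90, with KO LCA50 replicate 1 low for both of the second pair.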

How the data were processed

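The authors deposited 1 table of raw counts per gene for all 18 libraries, whole numbers with no normalization. STAR, HOMER and DESeq2 and the builds GRCm38 and mm10 are named, without versions or roles, per the submitters' processing notes; per the labels' protocols, RNA went into ultra-low input cDNA libraries. Trimming, counting and strand settings are not given in the sources used here. In R 4.3.3, edgeR 4.0.16 filterByExpr (by group) set the genes tested, TMM scaled the libraries, and 1 model held all 6 group means. Robust quasi-likelihood F tests gave p-values, adjusted by Benjamini-Hochberg over all 11651 genes, and an adjusted p under 0.05 was called. Errors after ± are standard errors of log2 fold changes, the change over the square root of F, or SDs where marked. Averaged contrasts weight groups equally. Intervals and errors cover the spread between libraries only.

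The members and lists were chosen with earlier results of these data known. Up to 3 called members of each list were named each way, by smallest p, or its 2 most abundant genes if none passed. For each member called at LCA50 averaged over labels, the 2 tested genes with the highest Pearson r (log2 CPM, prior count 2) were named. Predicted genes, with Gm or Rik symbols, were left out of that ranking. The 2 most abundant turnover genes were Cmtm6 and Ap1m1, at 219 and 193 CPM. Coordinates and exons come from the GENCODE annotation of GRCm38 and promoters from RefSeq GRCm38.p6, where Cd244 is named Cd244a. Alternatives were DESeq2 1.42.0, its size factors in edgeR, no filter, a mean CPM of at least 5, the compared groups alone, a replicate block, each library left out, a covariate of the summed CPM of 1478 receptor genes, and both high-background LCA50 libraries left out. The code was tested on simulated data. No library was a copy of another. Results for some marker genes are not reported here.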

Additional observations from a re-analysis of the deposited data

How the results depend on the processing

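Across all alternatives, no member changed sign after being called: of the values computed for single members, 2166 stayed on their side of the threshold, 32 lost it and 32 gained it. The number of members called moved as follows. For LCA10 against control in WT, where 0 were called, no filter and DESeq2 gave 1, and the compared groups alone and leaving out both high-background libraries gave 2 (Btla, and Ctla4 where 2). For LCA50 against control in WT, 4 became 2 with the background covariate and 3 without both libraries. For KO LCA10 against WT LCA10, 0 became 1 with no filter, the covariate or the compared groups alone (Pdcd1) and 2 without both libraries (Pdcd1 and Cd160). For KO LCA50 against WT LCA50, 0 became 1 (Pdcd1) with no filter, the covariate or DESeq2. For KO against WT averaged over doses, 1 became 2 with the covariate and 3 without both libraries. For LCA50 against LCA10 averaged over labels, 3 became 1 with the covariate or without both libraries, and 4 with no filter or DESeq2 (Btla added). The cause of these moves was not tested. In WT every LCA50 library had a higher receptor-gene background than any other WT library. A WT call at LCA50 lost with the covariate therefore cannot be assigned to background or dose. Leaving out each library in turn gave 2 to 4 members for LCA50 in WT, 3 to 3 for LCA50 in KO, 0 to 1 for KO LCA50 against WT LCA50, 1 to 4 for KO against WT averaged over doses, 1 to 2 for LCA10 and 3 to 4 for LCA50 averaged over labels, 2 to 4 for LCA50 against LCA10, and 0 to 0 for the others. The count over all genes for LCA50 against control in KO, 740, was 372 with the compared groups alone, 428 without both libraries and 384 to 475 without single KO control libraries or KO LCA50 replicate 1. In WT it was 1000, and 411 with the covariate, 664 without WT control replicate 3, 533 without WT LCA50 replicate 2 and 522 without WT LCA50 replicate 3. Over all alternatives it lay between 106 and 380 for LCA10 averaged over labels (212 as reported), 302 and 819 for LCA50 against LCA10 (667), 6 and 123 for LCA10 in KO (38), and 4 and 136 for LCA10 in WT (45). For KO against WT it lay between 28 and 211 in control (73), 43 and 158 at LCA10 (77), and 52 and 370 at LCA50 (226), and for the difference between responses between 0 and 3 at LCA10 and 0 and 7 at LCA50 (0 each). Libraries with the same replicate number did not deviate together (r from -0.218 to 0.0881, median -0.00125). This gave no sign that the numbers pair the libraries, though weak pairing could go unseen in groups of 3. With the replicate number as a block, the members called were 3 for LCA50 in KO, 4 in WT, and as many as without the block in all other contrasts. The compared groups alone could not be run for KO against WT averaged over doses, which uses every group. Depth limits Tox, Cd244 and Cd200, which had 11 to 66 counts a library.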

Other observations

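KO LCA50 replicate 1 held 272 CPM over the 10 members, the lowest of the 18 libraries, while the others held 342 to 471 CPM. Its Tigit, Cd200 and Tox values were above the mean of the other 2 libraries of its group, at ratios of 1.31, 2.69 and 1.21. The other 7 members lay below that mean, among them Havcr2 at 25.03 CPM, against 30.1 and 36.3 CPM in the other two. Its Btla and Ctla4 values, 12.2 and 156 CPM, were the lowest of their KO libraries, with ratios of 0.747 and 0.817.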
